A study of Rattus norvegicus with 12 samples.

Results

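The DNA replication machinery was followed here as 43 genes named by their known role, from the origin recognition complex to the enzymes that finish the lagging strand. The list was set by function, with earlier results of these data known. Of the 43, 42 had an entry among the 28727 named genes of the count table, and all 42 were among the 14669 genes that passed the filter on low counts. Dna2, a nuclease and helicase of flap processing, was not analysed here. RNA was sequenced from INS-1 832/13 cells, an insulin-secreting rat insulinoma line that divides in culture. Cells had been transduced with an adenovirus expressing GFP, as control, or ChREBPβ, and were then kept in 2 or 11 mM glucose for 48 h. The 4 groups were thus GFP at 2 mM, GFP at 11 mM, ChREBPβ at 2 mM and ChREBPβ at 11 mM glucose, each with 3 libraries, a, b and c. All groups carried an adenovirus, so that no group shows the cells without one, and all come from the same cell line. ChREBPβ is the short, constitutively active isoform of the carbohydrate response element-binding protein, a glucose-responsive transcription factor encoded by Mlxipl. The comparisons ask what added ChREBPβ does to these transcripts at each glucose level, what glucose does under each virus, and whether the effect of one depends on the other.

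Before S phase, the origin recognition complex and the loading factors Cdc6 and Cdt1 place rings of the Mcm2 to Mcm7 helicase on DNA, which is called licensing. At the onset of S phase Cdc45 and the GINS complex join the ring to form the active helicase, with Mcm10 as a helper. Polymerase alpha with its primase then starts each strand, polymerases epsilon and delta extend them on the sliding clamp Pcna, RPA coats the single strands, and Fen1 and the ligase Lig1 join the Okazaki fragments. Many of these genes are transcribed in waves under E2F transcription factors, so their RNA is high in dividing cells and low in resting ones. Adult β-cells divide rarely, whereas insulinoma lines cycle.

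E2F proteins read short sites close to the start of replication genes, so the starts of the helicase ring genes are shown first, with 3 genes that rose (Mcm3, Mcm5 and Mcm7) beside 2 that did not (Mcm2 and Mcm6). The sequences are from RefSeq, assembly GRCr8, and run from 250 bases before to 50 bases after the annotated start, 5′ to 3′ on the strand of the gene. Their positions are Mcm2 chr4:122918045-122918344 (minus strand), Mcm3 chr9:30733697-30733996 (minus strand), Mcm5 chr19:13488563-13488862 (plus strand), Mcm6 chr13:42404303-42404602 (minus strand) and Mcm7 chr12:22163129-22163428 (minus strand). Mcm4 has no entry in the table used. Capitals mark the letters TTTCCCGC, TTTCGCGC, TTTGCCGC or TTTGGCGC on either strand, spellings of the site that E2F proteins bind; matches that overlapped each other were each counted.
Mcm3: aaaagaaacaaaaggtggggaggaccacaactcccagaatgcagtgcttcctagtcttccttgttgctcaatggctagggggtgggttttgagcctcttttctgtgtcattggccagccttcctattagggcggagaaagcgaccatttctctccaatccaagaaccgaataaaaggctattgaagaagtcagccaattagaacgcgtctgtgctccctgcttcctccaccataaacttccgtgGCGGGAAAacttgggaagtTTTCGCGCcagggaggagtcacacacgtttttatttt
Mcm5: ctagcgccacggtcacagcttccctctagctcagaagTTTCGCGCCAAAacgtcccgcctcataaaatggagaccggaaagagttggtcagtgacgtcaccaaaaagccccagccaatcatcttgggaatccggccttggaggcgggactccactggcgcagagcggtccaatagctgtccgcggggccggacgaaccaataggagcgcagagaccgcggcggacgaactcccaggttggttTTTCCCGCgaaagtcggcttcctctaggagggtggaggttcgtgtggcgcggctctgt
Mcm7: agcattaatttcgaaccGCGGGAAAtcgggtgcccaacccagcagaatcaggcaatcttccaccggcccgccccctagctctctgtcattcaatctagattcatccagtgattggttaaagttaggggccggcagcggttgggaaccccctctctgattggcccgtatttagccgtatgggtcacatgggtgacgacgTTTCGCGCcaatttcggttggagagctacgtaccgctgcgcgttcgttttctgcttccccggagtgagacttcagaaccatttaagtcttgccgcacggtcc
Mcm2: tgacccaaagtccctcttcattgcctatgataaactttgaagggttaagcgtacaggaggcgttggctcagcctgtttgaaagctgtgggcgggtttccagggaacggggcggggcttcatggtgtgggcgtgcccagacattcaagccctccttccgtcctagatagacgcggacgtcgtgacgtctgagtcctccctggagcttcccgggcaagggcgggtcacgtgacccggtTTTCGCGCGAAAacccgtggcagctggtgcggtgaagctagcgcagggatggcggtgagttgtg
Mcm6: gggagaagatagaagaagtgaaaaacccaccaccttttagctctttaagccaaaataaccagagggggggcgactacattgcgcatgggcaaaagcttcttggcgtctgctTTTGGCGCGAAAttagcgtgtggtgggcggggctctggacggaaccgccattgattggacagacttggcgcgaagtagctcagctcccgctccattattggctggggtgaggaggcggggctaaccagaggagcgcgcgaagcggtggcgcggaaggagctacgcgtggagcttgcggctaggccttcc

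Each of these 5 windows held matches, 3 in Mcm5 and 2 in each of the others, whether or not the transcript rose. Of the 42 measured members, 36 had a window of 300 bases, and 18 of these (50.0%) held a match, against 3.95% of 10110 windows of tested genes and 2.25% of 27457 windows in the whole table. Among members called higher with ChREBPβ at 2 mM glucose, by the test given below, 11 of 20 (55.0%) held one, and among the other members 7 of 16 (43.8%). CACGTG, an E box of the kind that ChREBP and Myc recognise, was in 4 of 36 member windows (11.1%) against 9.17% of windows of tested genes and 6.65% of all. Those 4 were Mcm2, Fen1, Rfc1 and Rpa1, of which only Fen1 was called higher. CCAAT, searched on both strands, was in 21 of 36 (58.3%), against 37.5% of windows of tested genes and 37.7% of all. The GC box GGGCGG was in 23 (63.9%), against 62.5% and 34.9%. These matches describe the letters and show neither binding nor its absence, and each of the 4 motifs was counted without regard to overlap with the others.

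Library totals ranged from 25754488 to 60531215 counts, and every member had at least 233 counts in every library. Values are CPM, library-size-scaled counts after TMM, which are not divided by gene length and are therefore compared between libraries and not between genes. A gene was called when edgeR's quasi-likelihood test gave an adjusted p under 0.05 (Benjamini-Hochberg over all 14669 genes) and the change was at least 1.2-fold. The change is given as the log2 fold change (log2FC) with its standard error (SE), and adjusted p-values are those of edgeR. The labels give a, b and c as separate samples of a group, and p-values measure the spread between them. Totals were lowest with GFP at 2 mM, at 25754488 to 32938546, and highest with ChREBPβ at 11 mM, at 57088794 to 60531215, so depth moved with the groups. With every library thinned to 25754488 counts, a setting added after the data were seen, 22 members were called higher with ChREBPβ at 2 mM, as without thinning. The entries for Mlxipl (181 to 277 CPM over the 12 libraries) and for the isoform ChREBPb (64.7 to 98.3 CPM) showed no large rise with the ChREBPβ virus. Mlxipl was lower with ChREBPβ, by log2 fold changes of -0.33 at 2 mM and -0.14 at 11 mM. ChREBPb was higher, by 0.21 and 0.37. The paper describes the ChREBPβ of its adenovirus as a mouse sequence tagged with mCherry. The sources used here do not say whether the counting could register the viral transcript. Txnip, a target of ChREBP, rose from 24.3 to 27.7 CPM with GFP at 2 mM to 448 to 472 CPM with ChREBPβ at 2 mM. With GFP at 11 mM Txnip lay at 334.5 to 370.3 CPM. β-cell markers were all present. All 8 of 8 were called lower with ChREBPβ at both glucose levels. Of all tested genes, 23.2% were called lower at 2 mM and 19.1% at 11 mM. The markers summed to 22800 to 25700 CPM with GFP at 2 mM and 18400 to 20300 with GFP at 11 mM. With ChREBPβ they summed to 11900 to 12300 CPM at 2 mM and 11200 to 11700 at 11 mM. Summed markers of mesenchymal, acinar, endothelial and leukocyte cells reached at most 1.86 CPM in any library, and Dcn, Lum, Prss1, Pnlip and Ptprc had no count at all. Of these markers Pdgfrb went from at most 0.0292 CPM with GFP to between 0.41 and 1.01 CPM with ChREBPβ. Kdr, an endothelial receptor, was called lower at both glucose levels (log2 fold changes of -0.81 at 2 mM and -0.98 at 11 mM), and Cd68, a macrophage marker, was called higher at 2 mM (0.32 to 0.441 CPM with GFP, 0.588 to 1.11 CPM with ChREBPβ), so the markers moved both ways. The part of such shifts in the values of the replication genes was not tested. The RNA is bulk RNA, so a larger share of cells in S phase and more RNA per cell cannot be told apart.

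The replication genes were at their lowest in control cells in low glucose and higher in each of the other 3 groups. The 42 members summed to 4161 ± 70.6 CPM (SD, n = 3) with GFP at 2 mM, 4689 ± 79.0 with GFP at 11 mM, 4827 ± 17.2 with ChREBPβ at 2 mM and 4850 ± 60.1 with ChREBPβ at 11 mM. The sum was 4108 to 4241 CPM over the GFP libraries at 2 mM and 4600 to 4904 CPM over the 9 other libraries, so that the lowest of the 9 was above the highest of the 3. The ranges of the 3 higher groups touched or lay close together, with 4600 to 4751 CPM, 4808 to 4841 CPM and 4785 to 4904 CPM. GFP at 2 mM had the lowest mean of the 4 groups for 32 of the 42 members, and ChREBPβ at 11 mM had the highest for 22. In 19 members the means stood in the order GFP at 2 mM, GFP at 11 mM, ChREBPβ at 2 mM and ChREBPβ at 11 mM.

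**Figure D1:**
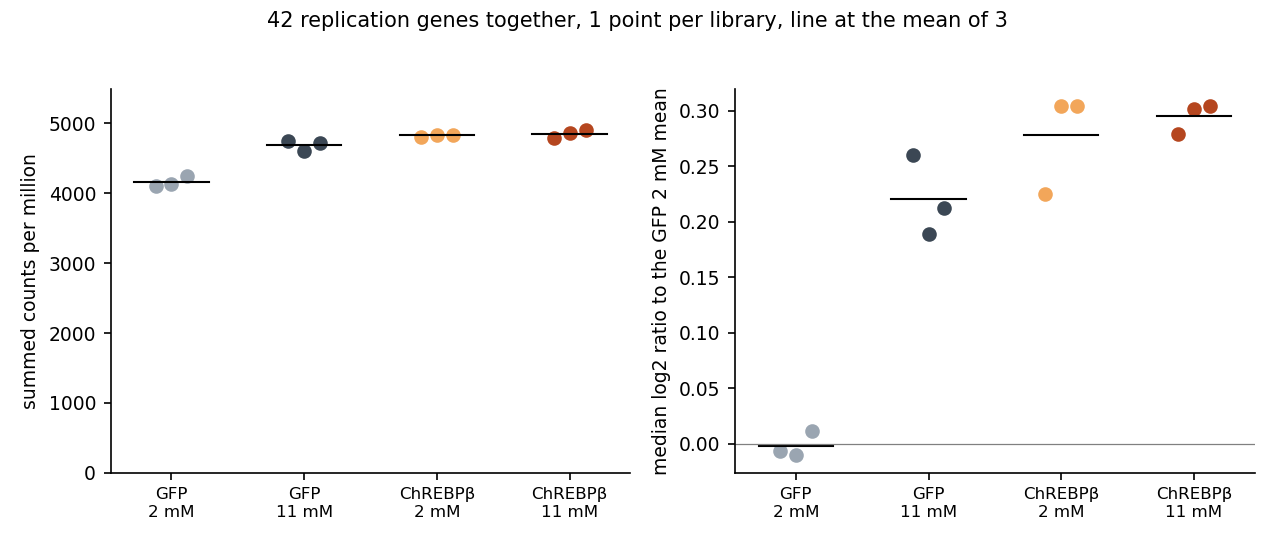
Left, summed CPM of the 42 replication genes; right, the median over the 42 genes of the log2 ratio to the gene's mean with GFP at 2 mM. Each point is a library, the lines are means of 3 and the x axis gives virus and glucose; the 3 libraries of GFP at 2 mM lie lowest in both panels, and those of the other groups lie at 0.19 to 0.30 in the right panel.

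At 2 mM glucose, ChREBPβ raised transcripts in every role group: 22 of the 42 members were called higher and 0 lower, against 21.0% of all tested genes called higher and 23.2% called lower. The changes were moderate, with a median log2 fold change of 0.27 (range -0.14 to 0.87), against -0.017 over all tested genes. Of the 42, 2 had an unadjusted p under 0.05 in the lower direction by edgeR, and DESeq2 called 0 lower. In 29 members all 3 ChREBPβ libraries lay above all 3 GFP libraries and in 2 all lay below, against 31.2% and 32.1% of all tested genes. The helicase had the largest share, with 8 of 12 called higher and a median of 0.43. Polymerases and primase had 5 of 9 (median 0.27), licensing factors 4 of 9 (0.25), the clamp, its loader and RPA 4 of 9 (0.16) and the Okazaki fragment enzymes 1 of 3 (0.25). Scaling by library totals in place of TMM moved the median of all genes to -0.12 and the share of calls that were higher from 47.5% to 33.2%, and with it 15 members were called higher and 0 lower. Of all tested genes, 15.0% were then called higher and 30.1% lower.

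**Figure D2:**
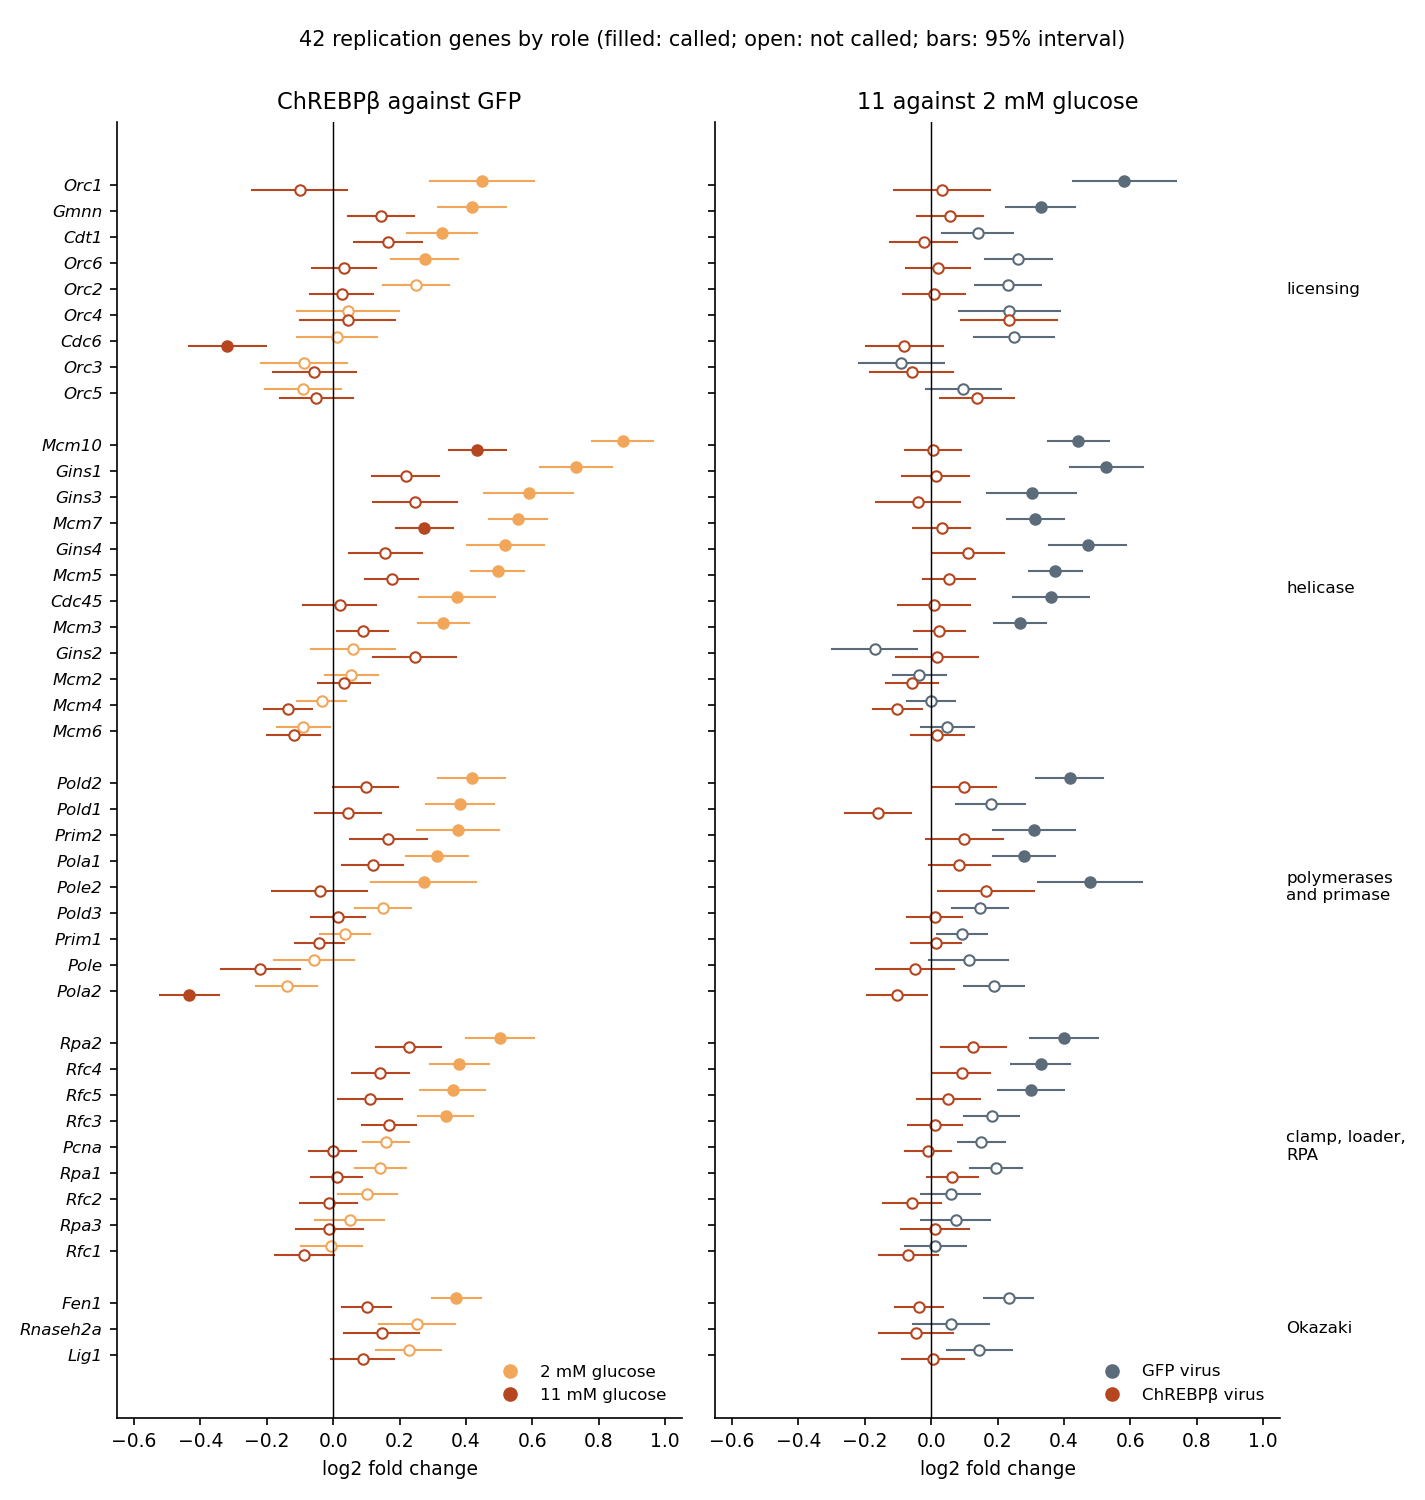
Log2 fold changes of the 42 replication genes, ordered by role and by size at 2 mM glucose; left, ChREBPβ against GFP at 2 mM (orange) and 11 mM glucose (brown), and right, 11 against 2 mM glucose with GFP (grey) and with ChREBPβ (brown). Filled points were called and bars are 95% intervals; 22 orange and 17 grey points are filled, against 4 brown points on the left and 0 on the right.

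Within the helicase the ring subunits did not move as 1 set. Mcm7 measured 242, 255 and 264 CPM with GFP at 2 mM, 326, 299 and 322 with GFP at 11 mM, 368, 374 and 379 with ChREBPβ at 2 mM and 366, 386 and 394 with ChREBPβ at 11 mM. All 9 other libraries were above the 3 GFP libraries at 2 mM. Mcm7, a subunit of the ring, rose with ChREBPβ at 2 mM by a log2FC of 0.56 (SE 0.0445, adjusted p = 1.78e-09) and with glucose under GFP by a log2FC of 0.31 (SE 0.0445, adjusted p = 1.73e-05). Mcm5 measured 209.7, 209 and 220.3 CPM with GFP at 2 mM, 279, 269 and 279 with GFP at 11 mM, 289, 303 and 309 with ChREBPβ at 2 mM and 304, 323 and 308 with ChREBPβ at 11 mM. Mcm5, which forms the gate of the ring together with Mcm2, rose by a log2FC of 0.50 (SE 0.0408, adjusted p = 2.8e-09) with ChREBPβ at 2 mM. Mcm3 rose by a log2FC of 0.33 (SE 0.0395, adjusted p = 5.37e-07), from 168 ± 6.45 to 211 ± 4.19 CPM (SD, n = 3). The remaining ring subunits were not called in any comparison. At 11 mM glucose 2 of them were lower with ChREBPβ by less than 1.2-fold. These were Mcm4 (log2FC -0.14, SE 0.0373, adjusted p = 0.00518) and Mcm6 (log2FC -0.12, SE 0.0405, adjusted p = 0.0207). Mcm2 measured 237, 248 and 260.3 CPM with GFP at 2 mM, 250.1, 234 and 243 with GFP at 11 mM, 258, 256 and 259.8 with ChREBPβ at 2 mM and 247, 249 and 249 with ChREBPβ at 11 mM. The groups at 2 mM overlapped, and the change of Mcm2 with ChREBPβ at 2 mM was a log2FC of 0.055 (SE 0.0403, adjusted p = 0.255) with a 95% interval of -0.024 to 0.13. For Mcm4 it was a log2FC of -0.034 (SE 0.0376, adjusted p = 0.459) (interval -0.11 to 0.04) and for Mcm6 a log2FC of -0.089 (SE 0.0408, adjusted p = 0.0674) (interval -0.17 to -0.0095). The intervals of these 3 lie below those of Mcm3 (0.25 to 0.41), Mcm5 (0.42 to 0.58) and Mcm7 (0.47 to 0.65), although the products occupy the same ring in equal number. RefSeq lists a pseudogene named after each of Mcm2, Mcm4 and Mcm7, and how the counting treated reads shared with such copies is not given in the sources used here.

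**Figure D3:**
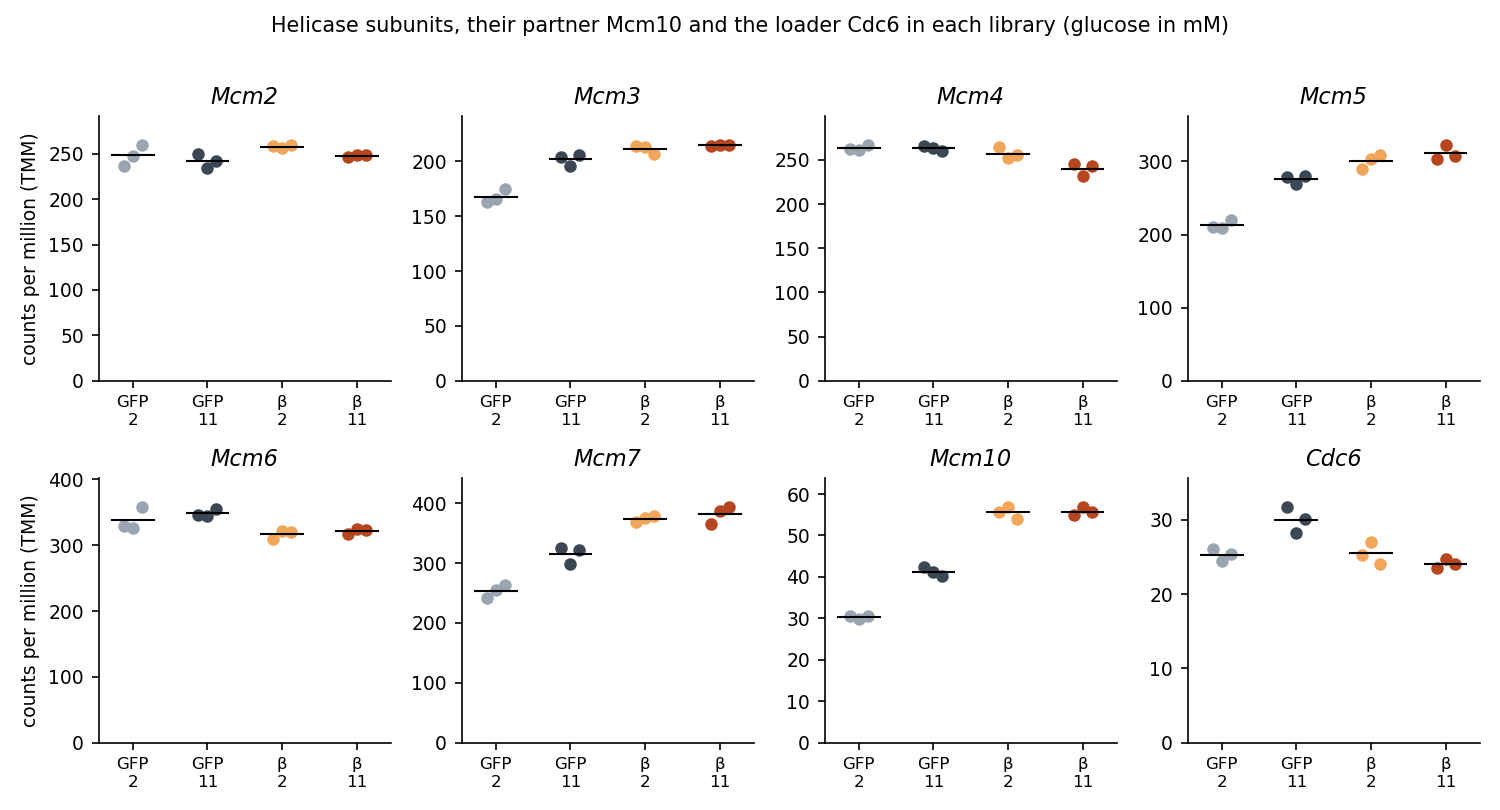
TMM-scaled CPM of the 6 ring subunits, Mcm10 and Cdc6, with 1 point per library, lines at the mean of 3 and the x axis giving virus and glucose in mM. Mcm3, Mcm5, Mcm7 and Mcm10 are lowest with GFP at 2 mM, Mcm2, Mcm4 and Mcm6 do not rise in the other groups, and Cdc6 is highest with GFP at 11 mM.

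The largest change of any member was that of Mcm10, which helps the loaded helicase to fire and to move. Mcm10 measured 30.7, 29.8 and 30.6 CPM with GFP at 2 mM, 42.4, 41.1 and 40.3 with GFP at 11 mM, 55.7, 56.9 and 54.0 with ChREBPβ at 2 mM and 54.9, 56.9 and 55.6 with ChREBPβ at 11 mM. The groups at 2 mM were far apart, and the ChREBPβ libraries lay above every GFP library at either glucose level. The increase at 2 mM was a log2FC of 0.87 (SE 0.0467, adjusted p = 3.78e-12). Of the GINS complex, Gins1 and Gins3 had the next largest values. Gins1 measured 19.8, 21.7 and 20.3 CPM with GFP at 2 mM, 30.8, 28.2 and 30.2 with GFP at 11 mM, 33.6, 34.4 and 34.8 with ChREBPβ at 2 mM and 34.9, 34.2 and 34.7 with ChREBPβ at 11 mM. The 6 ChREBPβ libraries of Gins1 lay above the 6 GFP libraries, and at 2 mM the change was a log2FC of 0.73 (SE 0.0555, adjusted p = 8.22e-10). Gins3 measured 26.5, 21.1 and 23.2 CPM with GFP at 2 mM, 29.8, 27.7 and 29.5 with GFP at 11 mM, 33.5, 35.8 and 36.7 with ChREBPβ at 2 mM and 35.1, 34.5 and 33.8 with ChREBPβ at 11 mM. Gins3 showed the same separation of the 6 and 6 libraries, with a log2FC of 0.59 (SE 0.0683, adjusted p = 3.69e-07) at 2 mM. Gins4 measured 24.0, 26.1 and 23.0 CPM with GFP at 2 mM, 34.0, 33.0 and 34.2 with GFP at 11 mM, 33.5, 35.6 and 35.3 with ChREBPβ at 2 mM and 35.5, 38.1 and 39.4 with ChREBPβ at 11 mM. Gins4 rose by a log2FC of 0.52 (SE 0.0592, adjusted p = 3.09e-07), with the 3 GFP libraries at 2 mM apart from the 9 others. The fourth subunit, Gins2, did not follow, with a log2FC of 0.059 (SE 0.0648, adjusted p = 0.453) at 2 mM and an interval of -0.068 to 0.19. Gins2 overlaps Gse1 in the annotation, and the sources do not give the strand setting of the counting. Cdc45 measured 26.9, 29.2 and 30.2 CPM with GFP at 2 mM, 38.7, 34.7 and 37.5 with GFP at 11 mM, 37.2, 38.2 and 36.5 with ChREBPβ at 2 mM and 36.3, 36.9 and 39.3 with ChREBPβ at 11 mM. Cdc45, which joins the ring with GINS, rose by a log2FC of 0.37 (SE 0.0587, adjusted p = 1.81e-05).

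Of the licensing factors, Orc1, Orc6, Cdt1 and Gmnn were called higher with ChREBPβ at 2 mM. Orc1 measured 10.7, 10.4 and 11.1 CPM with GFP at 2 mM, 15.9, 16.4 and 15.9 with GFP at 11 mM, 15.7, 13.4 and 15.0 with ChREBPβ at 2 mM and 16.0, 13.8 and 15.1 with ChREBPβ at 11 mM. Orc1, the largest subunit of the origin recognition complex, rose by a log2FC of 0.45 (SE 0.0801, adjusted p = 7.5e-05), and the GFP libraries at 2 mM were below all others. Cdt1 measured 39.9, 39.0 and 44.0 CPM with GFP at 2 mM, 46.8, 42.5 and 46.0 with GFP at 11 mM, 49.8, 52.2 and 52.0 with ChREBPβ at 2 mM and 51.6, 50.5 and 49.7 with ChREBPβ at 11 mM. Cdt1, which brings the helicase ring to the origin, rose by a log2FC of 0.33 (SE 0.054, adjusted p = 3.2e-05). Gmnn measured 50.9, 47.8 and 48.1 CPM with GFP at 2 mM, 63.7, 56.3 and 64.2 with GFP at 11 mM, 64.5, 66.9 and 64.6 with ChREBPβ at 2 mM and 66.2, 68.3 and 69.3 with ChREBPβ at 11 mM. Gmnn encodes geminin, the inhibitor that keeps Cdt1 from licensing an origin again, and it rose by a log2FC of 0.42 (SE 0.0528, adjusted p = 1.17e-06). Orc6 was close to the minimum of 1.2-fold, at a log2FC of 0.28 (SE 0.0513, adjusted p = 0.000121), and was not called without ChREBPβ replicate b or c at 2 mM (both 0.25). Orc2 was just under it, at a log2FC of 0.25 (SE 0.0505, adjusted p = 0.000288). Orc3, Orc4 and Orc5 were at log2FC values of -0.087, 0.046 and -0.091 and were not called; Orc3 and Orc4 overlap other protein-coding genes. Cdc6 measured 26.1, 24.4 and 25.4 CPM with GFP at 2 mM, 31.7, 28.2 and 30.1 with GFP at 11 mM, 25.3, 27.0 and 24.1 with ChREBPβ at 2 mM and 23.6, 24.7 and 24.0 with ChREBPβ at 11 mM. For Cdc6, the loader of the ring, the 2 groups at 2 mM overlapped, and the change was a log2FC of 0.012 (SE 0.0618, adjusted p = 0.881) with an interval of -0.11 to 0.13.

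Among polymerases, both the starting and the elongating enzymes had subunits that rose and subunits that did not. Pold1 measured 44.6, 48.2 and 49.0 CPM with GFP at 2 mM, 56.7, 50.8 and 53.0 with GFP at 11 mM, 58.9, 62.4 and 63.5 with ChREBPβ at 2 mM and 54.7, 55.3 and 55.6 with ChREBPβ at 11 mM. Pold1, the catalytic subunit of polymerase delta, was highest with ChREBPβ at 2 mM and rose there by a log2FC of 0.38 (SE 0.0522, adjusted p = 3.14e-06). Pold2 measured 43.6, 45.6 and 49.0 CPM with GFP at 2 mM, 63.6, 58.9 and 62.3 with GFP at 11 mM, 63.5, 60.7 and 60.8 with ChREBPβ at 2 mM and 68.1, 63.6 and 66.2 with ChREBPβ at 11 mM. Pold2, the second subunit, rose by a log2FC of 0.42 (SE 0.0518, adjusted p = 9.47e-07). Prim2, the large primase subunit, rose by a log2FC of 0.38 (SE 0.0628, adjusted p = 3.61e-05), and Pola1, the catalytic subunit of polymerase alpha, by a log2FC of 0.31 (SE 0.0475, adjusted p = 1.17e-05). Prim1, the small primase subunit that makes the RNA primer, was at a log2FC of 0.037 (SE 0.0385, adjusted p = 0.428), with an interval of -0.038 to 0.11. Pola2 measured 55.4, 57.7 and 60.4 CPM with GFP at 2 mM, 66.0, 64.5 and 67.1 with GFP at 11 mM, 52.4, 53.3 and 51.7 with ChREBPβ at 2 mM and 47.9, 50.7 and 47.9 with ChREBPβ at 11 mM. Pola2, the regulatory subunit that works with Pola1, lay below the GFP libraries in all 3 ChREBPβ libraries at 2 mM, with a log2FC of -0.14 (SE 0.0468, adjusted p = 0.0149), less than the 1.2-fold asked for. Pole2 measured 8.56, 8.28 and 8.53 CPM with GFP at 2 mM, 11.9, 11.5 and 11.9 with GFP at 11 mM, 9.56, 10.4 and 10.6 with ChREBPβ at 2 mM and 11.2, 10.9 and 12.3 with ChREBPβ at 11 mM. Pole2, the accessory subunit of polymerase epsilon, rose by a log2FC of 0.27 (SE 0.0807, adjusted p = 0.00692), close to the minimum, and was not called without GFP replicate b or ChREBPβ replicates b or c at 2 mM (0.26, 0.26 and 0.25). Pole, the catalytic subunit, was at a log2FC of -0.058 and Pold3 at 0.15, and neither was called. Pole2 overlaps Klhdc1 in the annotation.

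Pcna measured 449, 441 and 448 CPM with GFP at 2 mM, 506, 482 and 498 with GFP at 11 mM, 502, 493 and 500.0 with ChREBPβ at 2 mM and 485, 493 and 506 with ChREBPβ at 11 mM. Pcna, the sliding clamp and the most counted member, had no GFP library at 2 mM within the range of the others, but the increase with ChREBPβ at 2 mM was only a log2FC of 0.16 (SE 0.0358, adjusted p = 0.000759) and it was not called. The clamp loader that opens Pcna was divided: Rfc3, Rfc4 and Rfc5 rose by log2FC values of 0.34, 0.38 and 0.36, whereas Rfc1, the large subunit, was at a log2FC of -0.0049 (SE 0.0464, adjusted p = 0.935) and Rfc2 at a log2FC of 0.10 (SE 0.0448, adjusted p = 0.0547). Rpa2 measured 45.5, 50.0 and 44.6 CPM with GFP at 2 mM, 63.1, 61.9 and 60.1 with GFP at 11 mM, 65.3, 66.0 and 67.3 with ChREBPβ at 2 mM and 68.5, 75.6 and 72.7 with ChREBPβ at 11 mM. Rpa2, the middle subunit of the single-strand binding protein, rose by a log2FC of 0.50 (SE 0.0522, adjusted p = 8.27e-08), while Rpa1, at a log2FC of 0.14, and Rpa3, at 0.05, were not called. Fen1 measured 142, 141 and 143 CPM with GFP at 2 mM, 172, 160.2 and 168 with GFP at 11 mM, 184, 183 and 183 with ChREBPβ at 2 mM and 180.0, 178 and 178 with ChREBPβ at 11 mM. Fen1, the flap endonuclease of Okazaki fragments, rose by a log2FC of 0.37 (SE 0.0379, adjusted p = 6.25e-08); it overlaps Tmem258 in the annotation. Lig1, which seals the fragments, was at a log2FC of 0.23 (SE 0.0499, adjusted p = 0.000618) and Rnaseh2a, which removes RNA primers, at a log2FC of 0.25 (SE 0.0584, adjusted p = 0.000983), both short of 1.2-fold. RefSeq lists pseudogenes named after Pcna, Rfc4, Rfc5, Rpa1 and Rpa3.

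At 11 mM glucose the same comparison gave few calls, with 2 members higher and 2 lower, against 14.3% and 19.1% of all tested genes. The median was 0.044 (range -0.43 to 0.43), against -0.017 over all genes, and it was -0.040 with library totals in place of TMM, 0.077 without GFP replicate a at 11 mM and 0.068 without ChREBPβ replicate b at 11 mM. In 17 members all 3 ChREBPβ libraries were above the 3 GFP libraries and in 7 below, against 26.4% and 29.7% of all tested genes. At an adjusted p under 0.05 without the minimum fold change, 16 were higher and 5 lower, against 23.6% and 26.2% of all tested genes. Library totals gave 1 member higher and 3 lower, with 29.3% of all calls higher against 42.9%. Of all tested genes, library totals called 10.4% higher and 25.2% lower. The members called higher were Mcm10, by a log2FC of 0.43 (SE 0.0442, adjusted p = 9.13e-08), and Mcm7, by a log2FC of 0.27 (SE 0.044, adjusted p = 3.26e-05). Mcm7 was not called with library totals (0.19), without GFP replicate b (0.24) or without ChREBPβ replicate c at 11 mM (0.26). The members called lower were Pola2, at a log2FC of -0.43 (SE 0.0456, adjusted p = 1.49e-07), and Cdc6, at a log2FC of -0.32 (SE 0.059, adjusted p = 0.000158). For Pola2 the 3 ChREBPβ libraries lay at 47.9 to 50.7 CPM and the GFP libraries at 64.5 to 67.1 CPM. For Cdc6, whose product loads the ring, they lay at 23.6 to 24.7 CPM against 28.2 to 31.7 CPM. No other licensing factor or polymerase subunit passed both criteria at 11 mM, and Gins2 (log2FC 0.25, SE 0.0636, adjusted p = 0.00321) and Gins3 (log2FC 0.25, SE 0.0647, adjusted p = 0.00354) came close and were called by DESeq2 (0.26 and 0.27).

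Glucose alone also raised replication genes in GFP cells: 17 were called higher and 0 lower, against 10.2% and 10.0% of all tested genes. In the lower direction 1 member had an unadjusted p under 0.05 by edgeR, and DESeq2 called 0 lower. The median was 0.23 (range -0.17 to 0.58), against -0.0024 over all genes, and 38 of 42 changes were positive. In 30 members the 3 libraries at 11 mM were above the 3 at 2 mM and in 0 below, against 21.8% and 20.3% of all tested genes. By role, 8 of 12 helicase genes, 4 of 9 polymerase and primase genes, 3 of 9 genes of the clamp, loader and RPA, 2 of 9 licensing factors and 0 of 3 Okazaki fragment enzymes were called. The largest increases were those of Orc1, by a log2FC of 0.58 (SE 0.0796, adjusted p = 1.2e-05), Gins1, by a log2FC of 0.53 (SE 0.0559, adjusted p = 5.9e-07), and Pole2, by a log2FC of 0.48 (SE 0.08, adjusted p = 0.000106). Mcm10, Gins4 and Pold2 rose by log2FC values of 0.44, 0.47 and 0.42. Mcm3, at a log2FC of 0.27 (SE 0.0395, adjusted p = 2.86e-05), lay near the minimum and was not called without GFP replicate a or b at 2 mM or replicate a or c at 11 mM (0.25 to 0.26). Gins3 was not called without GFP replicate b at 2 mM (0.23), and Pola1 was not called without GFP replicate c at 2 mM (0.26) or replicate b at 11 mM (0.23). The ring subunits Mcm2, Mcm4 and Mcm6 were not called, at a log2FC of -0.036 (SE 0.0403, adjusted p = 0.537), a log2FC of -0.0006 (SE 0.0375, adjusted p = 0.993) and a log2FC of 0.048 (SE 0.0407, adjusted p = 0.402). Pcna was at a log2FC of 0.15 (SE 0.0358, adjusted p = 0.00264). The comparisons of ChREBPβ with GFP at 2 mM and of glucose under GFP share the 3 GFP libraries at 2 mM, so that a low value there enters both.

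With ChREBPβ, 11 against 2 mM glucose gave 0 members called in either direction, against 0.988% of all tested genes called higher and 2.88% lower. By edgeR 8 members had an unadjusted p under 0.05, 5 of them higher, and 0 passed the adjustment. DESeq2 put 2 members at an adjusted p under 0.05, and edgeR with library totals put 1 there. Both called 0 with the minimum of 1.2-fold. The median was 0.012 (range -0.16 to 0.23), with -0.0044 under library totals, and in 7 members the 3 libraries at 11 mM were above and in 7 below those at 2 mM, against 14.0% and 14.9% of all genes. The intervals bound the change closely around 0 for some members and not for others. For Mcm10 the 95% interval of the log2FC ran from -0.08 to 0.091, for Gins1 from -0.088 to 0.11, for Mcm7 from -0.055 to 0.12 and for Pcna from -0.08 to 0.06. Those of Orc4 (0.089 to 0.38) and Pole2 (0.02 to 0.31) lay above 0 and reached past 1.2-fold. Those of Orc5 (0.028 to 0.25), Rpa2 (0.028 to 0.22), Rfc4, Gins4 and Pold2 also lay above 0. Those of Pold1 (-0.26 to -0.061), Mcm4 (-0.18 to -0.029) and Pola2 (-0.19 to -0.014) lay below 0. The largest increase was that of Orc4 (log2FC 0.23, SE 0.0737, adjusted p = 0.0608). The largest decrease was that of Pold1 (log2FC -0.16, SE 0.0504, adjusted p = 0.0604).

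The dependence of the ChREBPβ effect on glucose was tested directly, as the change at 11 mM minus the change at 2 mM. It was called for 15 members, all lower at 11 mM, and for 0 higher, against 4.74% and 1.56% of all tested genes; 0 were higher at an unadjusted p under 0.05 by edgeR or called higher by DESeq2. The median difference was -0.22 (range -0.55 to 0.19), against -0.0064 over all genes, and it was negative for 39 of 42 members. The 3 GFP libraries at 2 mM enter the difference as well, so that a low value there would lower it. The difference equals that between the glucose responses with ChREBPβ and with GFP, so the signed log2FC with glucose was also lower with ChREBPβ than with GFP in these 15. For Cdc6, Gins3, Pola2, Pold1 and Fen1 it was positive with GFP and negative with ChREBPβ, where none was called; Pold1 stood at 0.18 and -0.16. The 15 were 7 of 12 helicase genes, 3 of 9 licensing factors, 3 of 9 polymerase and primase genes, 1 of 9 of the clamp, loader and RPA, and 1 of 3 Okazaki fragment enzymes. The largest differences were those of Orc1, at a log2FC of -0.55 (SE 0.108, adjusted p = 0.0031), Gins1, at a log2FC of -0.51 (SE 0.076, adjusted p = 0.00019), and Mcm10, at a log2FC of -0.44 (SE 0.0643, adjusted p = 0.00018). Gins1 had a log2FC of 0.73 at 2 mM and of 0.22 at 11 mM, and Orc1 of 0.45 and -0.10. Gins4 (-0.36), Cdc45 (-0.35), Gins3 (-0.34), Mcm5 (-0.32) and Mcm7 (-0.28) were the other helicase genes. Pold1 (-0.34), Pold2 (-0.32), Rpa2 (-0.27), Gmnn (-0.27) and Fen1 (-0.27) had smaller changes at 11 mM as well. Cdc6 (log2FC -0.33, SE 0.0854, adjusted p = 0.0208) and Pola2 (log2FC -0.29, SE 0.0653, adjusted p = 0.00779) had a different course. Their values with ChREBPβ against GFP were near or below 0 at 2 mM and negative at 11 mM. With glucose under GFP their log2FC values were 0.25 (adjusted p = 0.00347) and 0.19 (adjusted p = 0.00362), both under 1.2-fold. With glucose under ChREBPβ they were -0.081 (adjusted p = 0.483) and -0.10 (adjusted p = 0.2). Without GFP replicate a at 11 mM 9 members were called, with every library thinned to the smallest total 8, and in a test against 1.2-fold only Gins1. Of all tested genes, 4.29%, 3.85% and 1.23% were called lower in these settings. Thinning left the median of the members at -0.20. Gmnn, Rpa2, Gins3, Fen1, Cdc6 and Mcm7 were each not called in 4 or more of the alternative settings.

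**Figure D4:**
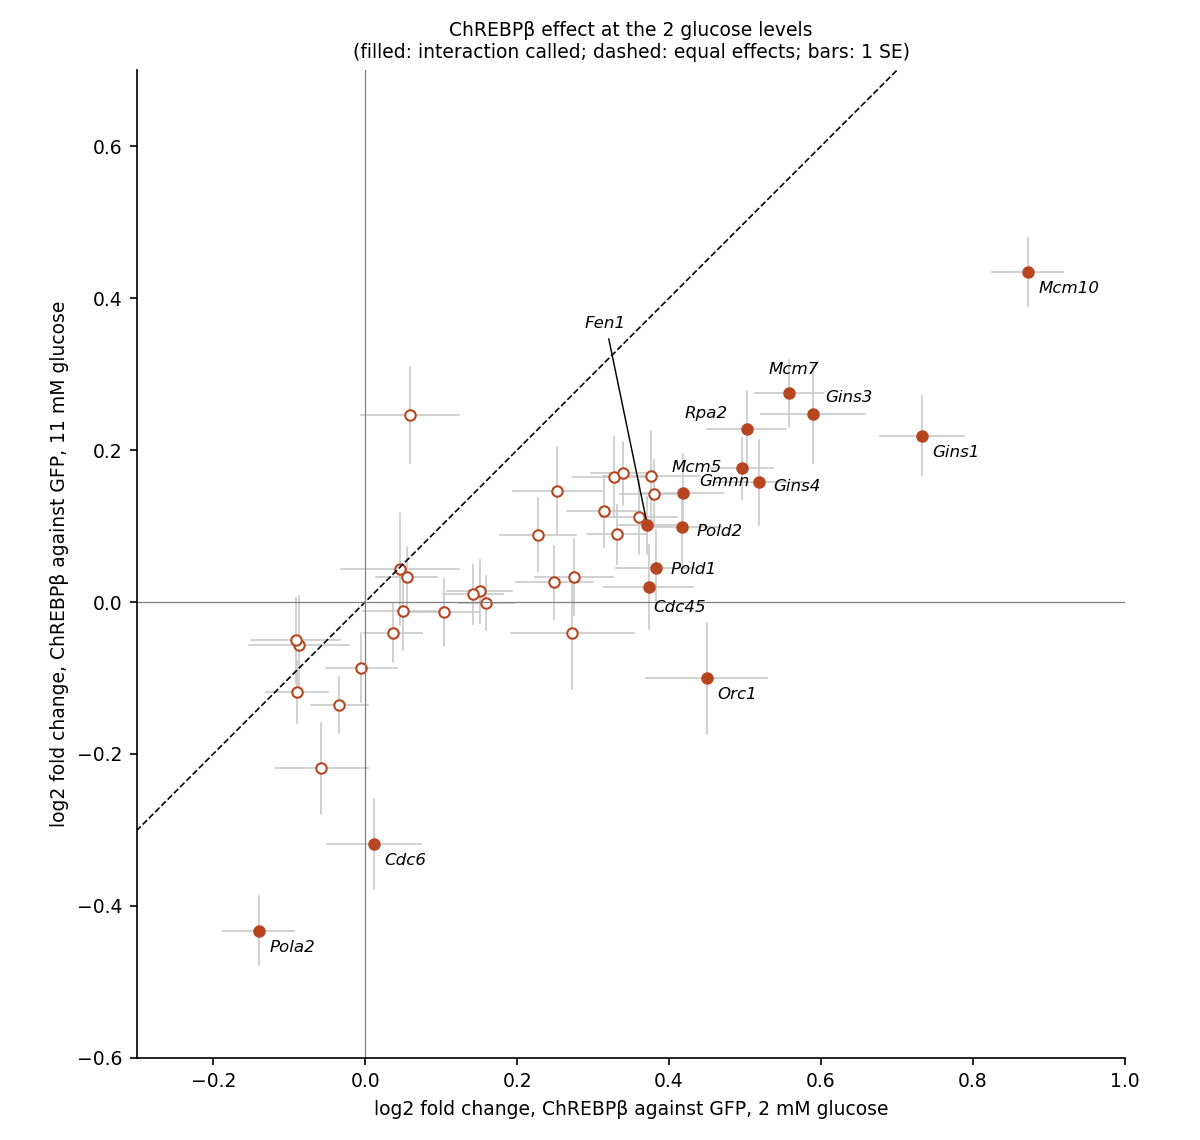
Each point is a replication gene, placed by its log2 fold change with ChREBPβ against GFP at 2 mM (x) and 11 mM glucose (y), with bars of 1 standard error. The dashed line marks equal effects; 39 of 42 points lie below it, and the 15 filled points, which are named, were called in the interaction.

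Across the 4 comparisons between groups, 18 members were called in none. They were Mcm2, Mcm4 and Mcm6, the origin recognition subunits Orc2 to Orc5, Gins2, Prim1, Pold3, Pole, Rfc1, Rfc2, Rpa1, Rpa3, Pcna, Lig1 and Rnaseh2a. Mcm7 and Mcm10 were the 2 members called higher with ChREBPβ at both glucose levels, 9.09% of the 22 called at 2 mM and 50.0% of the 4 called at 11 mM. Cdc6 and Pola2 were the 2 called lower at 11 mM, and neither was called at 2 mM. Within the ring, the origin recognition complex, GINS, primase, polymerases delta and epsilon, the clamp loader and RPA, some transcripts were called in at least 1 comparison and others were not. These patterns count calls, and whether a gene differed between comparisons was tested only by the interaction.

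Related genes outside the core machinery were counted in the same way. Of all tested genes, the shares called higher and lower were 21.0% and 23.2% with ChREBPβ at 2 mM, 14.3% and 19.1% at 11 mM, and 10.2% and 10.0% with glucose under GFP. In the interaction they were 1.56% and 4.74%. Of 29 replication regulators and accessory factors, 13 were called higher and 1 lower with ChREBPβ at 2 mM (median 0.19), 3 and 2 at 11 mM (0.043), and 12 and 1 with glucose under GFP (0.21). The shares called higher were 44.8%, 10.3% and 41.4%. Exo1, an exonuclease of repair and fork processing, rose by a log2FC of 0.90 (SE 0.0698, adjusted p = 1.19e-09) with ChREBPβ at 2 mM and by a log2FC of 0.72 (SE 0.0703, adjusted p = 2.01e-07) with glucose. Pold4, the smallest subunit of polymerase delta, moved against its partners Pold1 and Pold2 at 2 mM, with a log2FC of -1.11 (SE 0.092, adjusted p = 3.08e-09). At 11 mM Pold4 had a log2FC of -0.87 (SE 0.0899, adjusted p = 1.14e-07), and Pold1 and Pold2 were not called there. Cdc7, the kinase that activates the loaded ring, rose by a log2FC of 0.42 (SE 0.0525, adjusted p = 1.52e-06) at 11 mM, and Mcm8, a relative of the ring subunits, by a log2FC of 0.47 (SE 0.0955, adjusted p = 0.000736) with glucose. In the interaction 9 of the 29 were called lower, among them Exo1 at a log2FC of -0.62 (SE 0.0949, adjusted p = 0.000291) and Pclaf, a partner of Pcna listed in the table as Ns5atp9, at a log2FC of -0.45 (SE 0.131, adjusted p = 0.0381).

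Of 17 S-phase regulators, 6 were called higher and 1 lower with ChREBPβ at 2 mM, 1 and 1 at 11 mM, and 7 and 0 with glucose under GFP. The shares called higher were 35.3%, 5.88% and 41.2%, so that the share at 11 mM was below that of all tested genes. E2f2, an E2F activator, rose by a log2FC of 0.77 (SE 0.0534, adjusted p = 1.99e-10) at 2 mM, by a log2FC of 0.43 (SE 0.0507, adjusted p = 6.07e-07) at 11 mM and by a log2FC of 0.38 (SE 0.054, adjusted p = 1.66e-05) with glucose. Cdc25a, the phosphatase that frees Cdk2, rose by a log2FC of 0.52 (SE 0.0485, adjusted p = 1.84e-08) at 2 mM and by a log2FC of 0.39 (SE 0.0486, adjusted p = 3.83e-06) with glucose. Rbl2, a pocket protein that holds E2F genes silent in resting cells, fell at 11 mM, at a log2FC of -0.42 (SE 0.0568, adjusted p = 4.63e-06). E2f2 (log2FC -0.34, SE 0.0736, adjusted p = 0.00644) and E2f1 (log2FC -0.28, SE 0.0675, adjusted p = 0.0143) were called lower in the interaction.

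Among 8 genes of deoxynucleotide supply, 3 were called higher with ChREBPβ at 2 mM, 1 at 11 mM and 3 with glucose under GFP, or 37.5%, 12.5% and 37.5%. Rrm2, the regulated subunit of ribonucleotide reductase, rose by a log2FC of 0.82 (SE 0.0552, adjusted p = 1.29e-10), a log2FC of 0.45 (SE 0.0535, adjusted p = 8.17e-07) and a log2FC of 0.61 (SE 0.0553, adjusted p = 8.31e-08) in these comparisons. Dctpp1, which clears non-canonical nucleotides, rose by a log2FC of 0.39 (SE 0.0667, adjusted p = 5.45e-05) at 2 mM and by a log2FC of 0.40 (SE 0.0667, adjusted p = 0.000104) with glucose. Both were called lower in the interaction, at a log2FC of -0.38 (SE 0.0918, adjusted p = 0.0134) for Dctpp1 and a log2FC of -0.37 (SE 0.0767, adjusted p = 0.00424) for Rrm2.

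Mitosis genes, of which 19 were tested, were called higher in 14 cases with ChREBPβ at 2 mM, in 8 at 11 mM and in 11 with glucose under GFP, and the medians were 0.35, 0.22 and 0.30. The shares were 73.7%, 42.1% and 57.9%, and at 11 mM that of the replication genes was 4.76% (2 of 42). Aurka, a spindle kinase, rose by a log2FC of 0.66 (SE 0.0411, adjusted p = 3.68e-11) at 2 mM and by a log2FC of 0.50 (SE 0.04, adjusted p = 2.45e-09) at 11 mM, and Birc5, a chromosomal passenger protein, by a log2FC of 0.59 (SE 0.0593, adjusted p = 5e-08) and a log2FC of 0.44 (SE 0.0575, adjusted p = 2.41e-06). Ccnb1, the mitotic cyclin, and Kif11, a spindle motor, rose with glucose under GFP by a log2FC of 0.40 (SE 0.0422, adjusted p = 5.48e-07) and a log2FC of 0.37 (SE 0.0452, adjusted p = 3.41e-06). In the interaction Top2a (log2FC -0.27, SE 0.0697, adjusted p = 0.02) and Bub1 (log2FC -0.27, SE 0.0645, adjusted p = 0.0128) were called lower, 2 of 19, against 4.74% of all tested genes. With ChREBPβ, 11 against 2 mM glucose left 0 of the 19 called, with 13 at an unadjusted p under 0.05 by edgeR and 10 at an adjusted p under 0.05, all in the higher direction and all under 1.2-fold, against 2.72% of all tested genes higher and 4.78% lower at that threshold. Of genes upstream of the cycle, Myc rose by a log2FC of 1.49 (SE 0.0505, adjusted p = 2.59e-15) with ChREBPβ at 2 mM and by a log2FC of 0.44 (SE 0.047, adjusted p = 2.02e-07) at 11 mM. Myc also rose with glucose under GFP, by a log2FC of 1.21 (SE 0.0505, adjusted p = 1.47e-12). Ccnd1, which encodes cyclin D1, lay at 1.36 to 1.89 CPM in GFP libraries and 86.6 to 101 CPM in ChREBPβ libraries at low glucose, and at 1.66 to 2.35 CPM against 122 to 135 CPM at high glucose.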

How the data were processed

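Per the labels, total RNA of INS-1 832/13 cells was amplified before sequencing. The authors deposited raw read counts per gene for the 12 libraries in 1 table; the submitters' processing notes name the Rnor 6.0 build and edgeR, and the aligner and counter are not given in the sources used here. A further 4 columns that repeat library names were not used. Of 28728 rows, 1 without a gene name (0.0043% to 0.006% of counts) was left out.

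Tests were run with edgeR 4.0.16 in R 4.3.3, with DESeq2 1.42.0 as an alternative, and tables were summarised in Python 3.11.15. The edgeR function filterByExpr by group kept 14669 genes. All 12 libraries entered 1 quasi-likelihood fit with TMM factors and group as the only term, and 5 contrasts were tested, each with Benjamini-Hochberg adjustment over all genes. Called means an adjusted p under 0.05 and at least 1.2-fold. SE is the size of the log2 fold change over the square root of F, and 95% intervals use the normal quantile. The fit was checked on simulated counts. Replicates differed beyond sampling noise (chi-square per degree of freedom 3.07 to 17.3). This does not show whether they were separate cultures, because libraries prepared apart from the same RNA can also differ beyond that noise. The paper describes the plotted values of these RNA data as averages over 3 independent experiments.

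Values of every library are given for Pcna, Cdc6, Cdt1, Mcm2 and Mcm7, for up to 3 called members with the largest increase and decrease in each comparison, and for members called in the interaction; in other lists the 2 called genes with the largest change are named. The members and lists, and the ring promoters shown, were chosen with earlier results of these data known. Promoters came from RefSeq (GRCr8), for 36 of 42 members matched by symbol; gene overlaps and pseudogene names came from the same assembly. Alternatives were other normalizations, filters, thresholds and tools, a replicate block, each library left out, and, added after the data were seen, thinning to the smallest total.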

Additional observations from a re-analysis of the deposited data

Results flagged for a closer look

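The change with ChREBPβ depended on the glucose level for 15 replication genes, by edgeR's interaction test at an adjusted p under 0.05 and at least 1.2-fold. All 15 were lower at 11 mM, and of all tested genes 4.74% were called lower and 1.56% higher. The log2 differences, 11 mM minus 2 mM, were -0.55 for Orc1 (interval -0.76 to -0.34), -0.51 for Gins1 (-0.66 to -0.37) and -0.44 for Mcm10 (-0.56 to -0.31). They were -0.36 for Gins4, -0.35 for Cdc45, -0.34 for Gins3, -0.34 for Pold1, -0.33 for Cdc6, -0.32 for Mcm5, -0.32 for Pold2, -0.29 for Pola2, -0.28 for Mcm7, -0.27 for Rpa2, -0.27 for Gmnn and -0.27 for Fen1. With libraries thinned to the smallest total 8 of the 15 passed, and the median over all members was -0.2017 against -0.2168 without thinning. Of the 7 others, Fen1 (-0.26) fell short of 1.2-fold, Rpa2 (-0.21) missed both criteria, and Cdc45 (-0.31), Cdc6 (-0.29), Gins3 (-0.35), Gins4 (-0.36) and Pola2 (-0.27) kept more than 1.2-fold with an adjusted p above 0.05. In a test against 1.2-fold, 1 of the 15, Gins1, passed.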

How the results depend on the processing

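In no setting did a called replication gene change sign. Scaling by library totals gave a median log2 fold change of the members of 0.1747 with ChREBPβ at 2 mM, -0.0401 at 11 mM, 0.2007 for glucose under GFP, -0.0044 for glucose under ChREBPβ and -0.2014 for the interaction, and left 1 member higher with ChREBPβ at 11 mM. DESeq2 and RLE factors each called 4 higher there, with medians of 0.0632 and 0.0634. They called 15.3% and 15.6% of all tested genes higher there, and library totals 10.4%. Testing against 1.2-fold left 1 higher and 1 lower there, 8 higher for glucose under GFP and 1 lower in the interaction. The shares of all tested genes were 9.06%, 11.1%, 4.2% and 1.23%. Without the minimum fold change, 1 was lower with ChREBPβ at 2 mM, 16 were higher and 5 lower at 11 mM, and 29 were higher for glucose under GFP. Of the 14669 tested genes, 4378 were lower with ChREBPβ at 2 mM and 2669 higher for glucose under GFP. At 11 mM 23.6% were higher and 26.2% lower. Thinning to the smallest total gave a median of 0.2088 for glucose under GFP and 8 calls in the interaction, where 3.85% of all tested genes were called lower.

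Leaving out 1 library at a time gave medians of 0.2504 to 0.3071 with ChREBPβ at 2 mM, 0.0388 to 0.0768 at 11 mM, 0.2087 to 0.2329 for glucose under GFP and -0.2315 to -0.1926 for the interaction, whose calls numbered 9 to 17. Of all tested genes, 3.67% to 5.41% were called lower in the interaction. Deviations of same-letter libraries from their group means correlated at -0.11 to 0.064 over 18 pairs, and those of different letters at -0.087 to 0.16 over 36, so the letters were not taken to pair samples. With the replicate block, 22 members were called higher with ChREBPβ at 2 mM, 18 for glucose under GFP (Orc6 was added) and 15 in the interaction, and no other call of a member changed. The shares of all tested genes were 21.0% and 10.2% called higher and 4.72% called lower. The cause of these shifts was not tested.

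With 3 libraries per group from 1 cell line, several calls were lost when single libraries were left out, among them Orc6 and Pole2 with ChREBPβ at 2 mM, Mcm7 at 11 mM, Mcm3 for glucose under GFP, and Gins3, Gmnn and Rpa2 in the interaction. The members had at least 233 counts in every library. RNA of mixed cells does not give the share in S phase, and protein was not measured. Reads shared with the 15 pseudogenes that RefSeq names after 10 members, or with the protein-coding genes that overlap 6 members, may be assigned differently by another counter.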
